A study of Mus musculus with 6 samples.

Results

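A set of 10 imprinted growth genes was followed in the RNA of mouse tail tendon, chosen by gene symbol. They were *H19*, *Igf2*, *Meg3*, *Dlk1*, *Peg3*, *Mest*, *Plagl1*, *Cdkn1c*, *Grb10* and *Rian*. All 10 had a row among the 44788 symbols of the count table, and all 10 were among the 14550 genes with enough reads to test. Bulk RNA-seq, which mixes the RNA of every cell in the sample, compared 3 libraries from wild-type (WT) mice with 3 libraries from *Mkx*-/- mice. All mice were of the C57BL/6 strain. Their age was 3 weeks by the sample labels, while the study's text gives a slightly older age. The *Mkx*-/- line came from another laboratory, and whether the WT mice were littermates is not given. *Mkx*-/- mice lack the tendon transcription factor Mohawk and form bone inside their tendons. The labels do not say whether a library came from 1 mouse or several, so the p-values below measure the spread between these libraries.

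The libraries held 10835070 to 14160301 counts. Levels are given as normalized CPM, counts per 1000000 counts of a library after edgeR's TMM scaling. Differences are log2 fold changes of *Mkx*-/- over WT from the quasi-likelihood test of edgeR, with p-values adjusted by Benjamini-Hochberg over all genes tested. Genes with an adjusted p under 0.05 are named upregulated where they also exceed a log2 fold change of 1, and downregulated where they lie below -1. *Mkx* itself had 1381 to 1825 counts in WT and 491 to 620 counts in *Mkx*-/- libraries, a log2 fold change of -1.60. WT replicate 3 held 301 counts of the Y-linked gene *Ddx3y* and the other libraries held 0, so that library came from a male and the rest did not. Of 10 tendon markers 4 were higher and 6 lower, and 1 was upregulated, *Thbs4* (log2 fold change 1.26, edgeR adjusted p = 0.0118, and 0.0657 without WT replicate 3). Their summed level was 377257 to 520866 CPM in WT and 240969 to 335662 CPM in *Mkx*-/- libraries, most of it collagen I. *Col1a2* and *Egr1* lay below WT in every *Mkx*-/- library, with log2 fold changes of -1.02 and -1.13 that did not pass the adjusted threshold in edgeR, and *Tnmd* overlapped, with -0.024.

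Imprinted genes are transcribed from the allele of a single parent. Many of them act on growth before and shortly after birth, and genes such as *Igf2*, *H19*, *Mest* and *Dlk1* are known to be shut down in most tissues as the young animal's growth slows. Paternally expressed members such as *Igf2* tend to promote growth, and maternally expressed members such as *Cdkn1c* and *Grb10* tend to restrain it. Several lie side by side and share a control region, as do *Igf2* with *H19*, and *Dlk1* with *Meg3* and *Rian*. Counts per gene do not show which allele was read.

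In *Mkx*-/- tendons, *H19* rose about 3.39-fold and *Peg3* fell to 0.595 of its WT level. *Mest*, *Dlk1*, *Igf2* and *Grb10* had mean levels 1.58 to 3.70 times those of WT by edgeR's estimate, without passing the adjusted threshold. *Meg3*, *Rian*, *Cdkn1c* and *Plagl1* had fold changes between 0.986 and 1.30 and did not pass it either. Of the 10 members, 1 was upregulated, where 1.89% of all tested genes were, and 0 were downregulated, where 1.33% were. By the adjusted p alone, 1 member was higher and 1 lower, against 3.18% and 2.26% of all tested genes. In 5 members every *Mkx*-/- library lay above every WT library (14.6% of all tested genes), and in 1 every *Mkx*-/- library lay below (13.6%). The median log2 fold change over the members was 0.52, and over all tested genes -0.0037. These counts depended on the tool and on single libraries. DESeq2 called 3 members upregulated and 5 past the adjusted p. Of its 15768 tested genes it called 386 upregulated and 274 downregulated. In edgeR, leaving out WT replicate 2, WT replicate 3 or *Mkx*-/- replicate 3 left 0 members upregulated and 0 past the adjusted p. With scaling by library size alone, which raised the median log2 fold change of all genes by 0.25, 4 members were upregulated, and over all genes 711 were upregulated and 154 downregulated in place of 275 and 193.

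**Figure D1:**
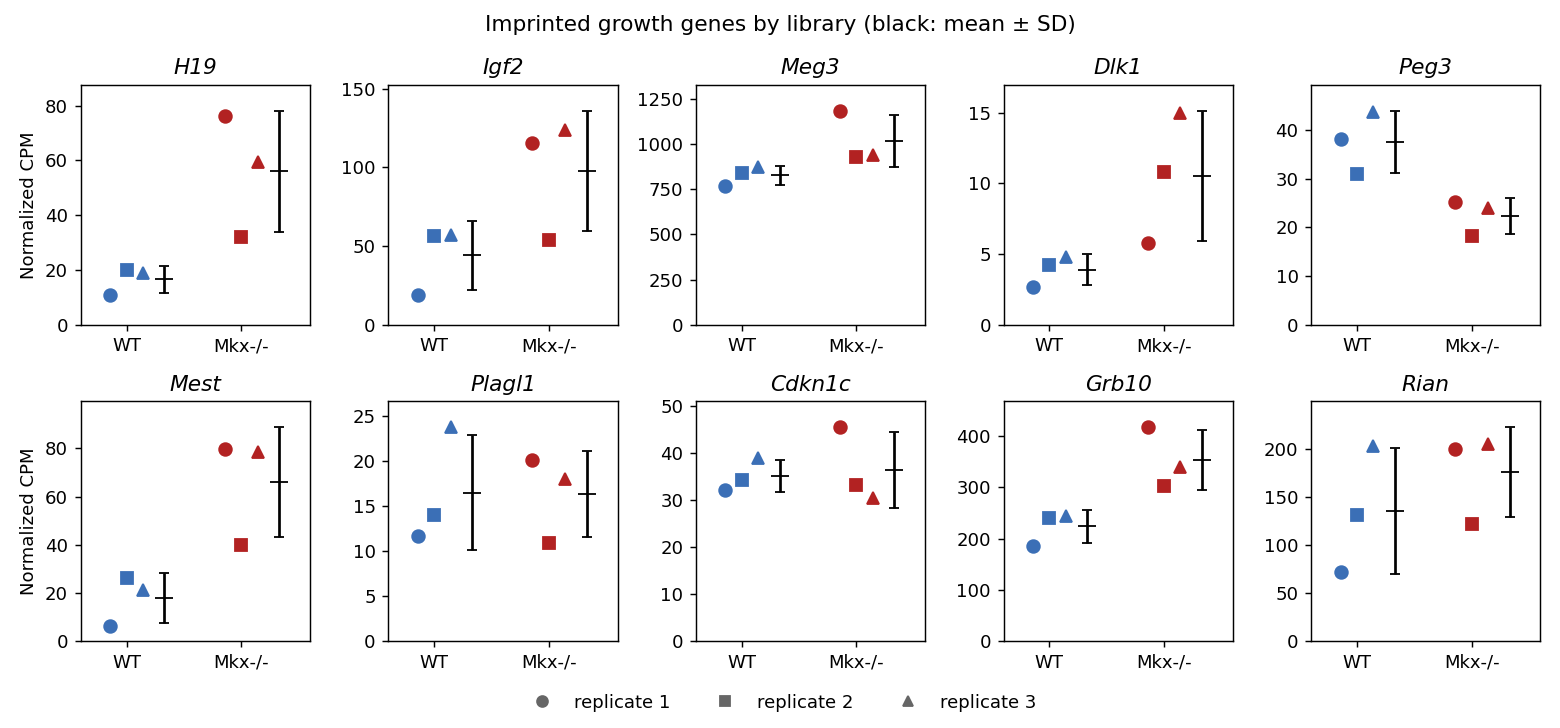
Normalized CPM (y axis, from 0) of the 10 imprinted growth genes in the 3 WT libraries (blue) and 3 Mkx-/- libraries (red), 1 panel a gene, with the marker shape giving the replicate and black bars the mean and SD. H19, Meg3, Dlk1, Mest and Grb10 had every Mkx-/- library above every WT library, and Peg3 had every one below.

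Within a genotype, the members spanned a wide range of abundance. Per kilobase of annotated exon, which allows levels of different genes to be set side by side, *Meg3* was the most abundant in WT at 45.8 ± 2.92 CPM per kb (SD, n = 3), followed by *Grb10* at 24.4 ± 3.56 CPM per kb (SD, n = 3). *Cdkn1c* and *Rian* came next with 18.2 and 16.5 CPM per kb, then *Igf2*, *H19* and *Mest* with 8.02, 6.96 and 4.54 CPM per kb, and *Peg3* and *Plagl1* with 2.82 and 2.27 CPM per kb. *Dlk1* was the least abundant at 0.690 ± 0.194 CPM per kb (SD, n = 3). *Meg3*, *Grb10* and *Dlk1* stood clear of their neighbours in this order, while every neighbouring pair from *Cdkn1c* down to *Plagl1* had overlapping libraries. In *Mkx*-/- tendons, *Meg3* and *Grb10* were again the most abundant at 56.3 and 38.5 CPM per kb. The next 5, *H19*, *Rian*, *Cdkn1c*, *Igf2* and *Mest*, ran from 23.6 to 16.8 CPM per kb with overlapping neighbours, and *Peg3* was now the lowest at 1.68 CPM per kb, overlapping *Dlk1*.

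*H19* encodes a long non-coding RNA expressed from the maternal allele and restrains growth. It lies on the minus strand at chr7:149761434-149764048 (mm9). Its level was 10.9, 19.8 and 18.8 CPM in WT replicates 1 to 3 and 76.2, 32.2 and 59.4 CPM in *Mkx*-/- replicates 1 to 3. The lowest *Mkx*-/- library thus stood above the highest WT library. The means were 16.5 ± 4.91 and 55.9 ± 22.2 CPM (SD, n = 3 each), and the log2 fold change was 1.76 (standard error, SE, 0.34, edgeR adjusted p = 0.0243). When each library was left out in turn, the edgeR adjusted p was under 0.05 in 2 of 6 cases. It was highest, at 0.0820, without the male WT replicate 3, and nearly as high, at 0.0779, without WT replicate 2. The log2 fold change stayed between 1.45 and 2.04.

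*Igf2* encodes the insulin-like growth factor that drives fetal growth and is expressed from the paternal allele, next to *H19*. It lies on the minus strand at chr7:149836673-149852721 (mm9), where *Igf2as* overlaps it on the opposite strand. Its level was 18.9, 56.0 and 57.2 CPM in the WT libraries and 115.5, 53.8 and 123.9 CPM in the *Mkx*-/- libraries. WT replicate 1 was far below the other WT libraries, and *Mkx*-/- replicate 2 lay within the WT range, so that the genotypes overlapped. The log2 fold change of 1.15 did not pass the threshold (SE 0.44, edgeR adjusted p = 0.164), and its 95% interval ran from 0.15 to 2.15. Without WT replicate 1 it was 0.78, and without *Mkx*-/- replicate 2 it was 1.44.

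*Mest*, also called *Peg1*, is a paternally expressed gene whose loss slows growth. It lies on the plus strand at chr6:30673547-30698457 (mm9). Its level was 6.30, 26.1 and 21.2 CPM in the WT libraries and 79.9, 39.8 and 78.4 CPM in the *Mkx*-/- libraries, without overlap. The log2 fold change of 1.89 was larger than that of *H19* but varied more, with an SE of 0.47 and an edgeR adjusted p of 0.0579. Without WT replicate 1, the library with the lowest value, the log2 fold change fell to 1.48 and passed the threshold (edgeR adjusted p = 0.0228). *Copg2* overlaps *Mest* on the opposite strand. It averaged 35.2 ± 3.94 CPM in WT and 24.0 ± 1.57 CPM in the *Mkx*-/- group (SD, n = 3 each) (log2 fold change -0.55, edgeR adjusted p = 0.0479), the opposite direction to that of *Mest*.

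*H19*, *Igf2* and *Mest* each carry a microRNA, and the mature forms are shown because these are 3 of the members with the larger fold changes. Capitals mark the seed, bases 2 to 8 from the 5′ end, which pairs with target mRNAs. The sequences are those of RefSeq for GRCm38.p6. In that build the 5p arms lie at chr7:142577112-142577133 on the minus strand within *H19* (miR-675), chr7:142654968-142654989 on the minus strand within *Igf2* (miR-483) and chr6:30741314-30741336 on the plus strand within *Mest* (miR-335), and each 3p arm lies beside its 5p arm.
mmu-miR-675-5p: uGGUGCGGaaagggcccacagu
mmu-miR-675-3p: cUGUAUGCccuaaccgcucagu
mmu-miR-483-5p: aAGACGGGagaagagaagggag
mmu-miR-483-3p: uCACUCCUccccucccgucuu
mmu-miR-335-5p: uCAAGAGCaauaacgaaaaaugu
mmu-miR-335-3p: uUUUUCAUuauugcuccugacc
No seed was shared among these arms. The count table has a row for each of the 3 precursor genes. *Mir675* had 0 counts in every WT library and 1, 1 and 2 counts in the *Mkx*-/- libraries, and *Mir483* and *Mir335* had 0 counts throughout, all at or under the 3 counts that a 0 allows. Over 34 microRNA genes in or near the members, most of them in the *Dlk1*-*Meg3* region, 15 had any count and the libraries held 0 to 26 such counts in all. The most were those of *Mir431*, named after its values were seen, with 0, 2 and 4 counts in WT and 7, 4 and 15 counts in *Mkx*-/- libraries. None of the 34 had enough counts to test, and such rows could also hold reads of the host transcript.

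*Dlk1* encodes a transmembrane protein of the Notch ligand family that marks immature cells of fat, muscle and other tissues, and is expressed from the paternal allele. It lies on the plus strand at chr12:110691033-110701546 (mm9). Its level was 2.68, 4.22 and 4.81 CPM in the WT libraries and 5.77, 10.8 and 15.0 CPM in the *Mkx*-/- libraries, from 34 to 189 counts a library. The genotypes did not overlap, although *Mkx*-/- replicate 1 was close to the WT libraries. The log2 fold change was 1.44 (SE 0.36, edgeR adjusted p = 0.0597), and it passed the threshold in DESeq2 (adjusted p = 0.00426) and, in edgeR, without *Mkx*-/- replicate 1 (0.0242).

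*Meg3* and *Rian* are maternally expressed long non-coding RNAs that follow *Dlk1* on the same chromosome, on the plus strand from 110779211 to 110809936 and from 110842155 to 110899919 in mm9. *Meg3* was at 771, 838 and 875 CPM in WT, above 99.5% of the tested genes, and at 1186, 930 and 941 CPM in *Mkx*-/- libraries. The groups did not overlap, but the log2 fold change was only 0.30 (SE 0.15, edgeR adjusted p = 0.291), with a 95% interval from -0.049 to 0.65. *Rian* was at 71.8, 131 and 203 CPM in WT and at 200.1, 122 and 205 CPM in *Mkx*-/- libraries. It overlapped between genotypes, with a log2 fold change of 0.38 (SE 0.35, edgeR adjusted p = 0.575) that was 0.072 without WT replicate 1. *Mirg*, the next non-coding RNA of the region, was at 4.25, 13.3 and 14.8 CPM in WT and at 21.4, 10.5 and 22.0 CPM in *Mkx*-/- libraries (edgeR adjusted p = 0.370). Within each genotype, *Rian* and *Mirg* were thus lowest in the same library, WT replicate 1 and *Mkx*-/- replicate 2. That was so for 19.7% of all tested genes.

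*Grb10* encodes an adaptor protein that binds the insulin and IGF1 receptors and dampens their signal. It lies on the minus strand at chr11:11830511-11938686 (mm9). Its level was 186, 241 and 244 CPM in the WT libraries and 417, 303 and 339 CPM in the *Mkx*-/- libraries, without overlap. The log2 fold change was 0.66 (SE 0.17, edgeR adjusted p = 0.0649, and 0.00802 in DESeq2), and its 95% interval of 0.27 to 1.05 reached just past a doubling.

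*Peg3* encodes a zinc finger protein expressed from the paternal allele. It lies on the minus strand at chr7:6656603-6683132 (mm9). Its level was 38.1, 30.9 and 43.7 CPM in the WT libraries and 25.1, 18.2 and 23.9 CPM in the *Mkx*-/- libraries. Every *Mkx*-/- library was below every WT library, the opposite of the other members whose genotypes did not overlap. The log2 fold change was -0.75 (SE 0.18, edgeR adjusted p = 0.0478), within the fold threshold and close to that of p. With any single library left out the adjusted p was above 0.05, between 0.0545 and 0.136.

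*Cdkn1c* encodes p57, a maternally expressed inhibitor of cyclin-dependent kinases, on the minus strand at chr7:150644255-150646955 (mm9). *Plagl1* encodes a paternally expressed zinc finger transcription factor that acts on other imprinted genes, on the plus strand at chr10:12810497-12851500 (mm9). *Cdkn1c* was at 32.1, 34.4 and 38.9 CPM in WT and at 45.5, 33.3 and 30.4 CPM in *Mkx*-/- libraries, and *Plagl1* at 11.7, 14.0 and 23.8 CPM and at 20.2, 11.0 and 18.0 CPM. Both overlapped between the genotypes. The log2 fold change of *Cdkn1c* was 0.049 with a 95% interval from -0.34 to 0.44 (edgeR adjusted p = 0.903), which leaves out a doubling or a halving. That of *Plagl1* was -0.020 with an interval from -0.72 to 0.68 (edgeR adjusted p = 0.981), and its sign turned under library size scaling and without WT replicate 3 or *Mkx*-/- replicate 2. That of *Cdkn1c* turned without WT replicate 1 or *Mkx*-/- replicate 1, at -0.015 and -0.16.

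**Figure D2:**
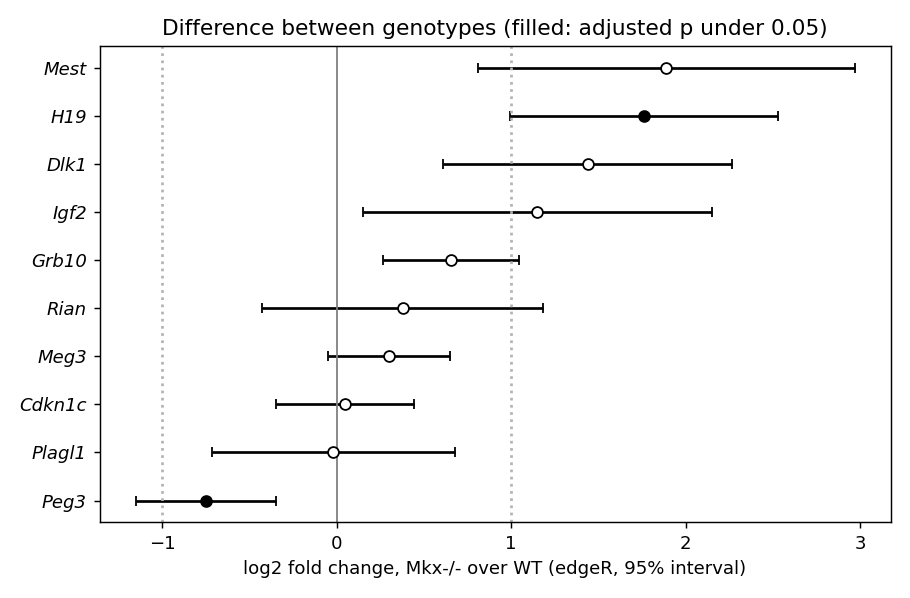
Log2 fold change of Mkx-/- over WT (x axis) for the 10 genes (y axis), with 95% intervals from edgeR, filled points for an adjusted p under 0.05 and dotted lines at -1 and 1. H19 at 1.76 and Peg3 at -0.75 are filled, and the intervals of Meg3, Rian, Cdkn1c and Plagl1 cross 0.

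The members also varied together between libraries of a single genotype, a pattern noticed after the values were seen. WT replicate 1 held the lowest WT level of 9 of the 10 members, all but *Peg3*, where it is the lowest of the WT libraries for 38.0% of all tested genes. *Mkx*-/- replicate 2 held the lowest *Mkx*-/- level of 8 of the 10, all but *Dlk1* and *Cdkn1c*, where this is so for 34.7% of all tested genes. Both held for 7 members, and for 19.7% of all tested genes. The spread was largest in *Mest*, whose highest WT library was 4.14 times the lowest, and in *Igf2* and *Rian*, with 3.03 and 2.82 times. On the log2 scale the WT ranges of these genes were 2.04, 1.59 and 1.49, where the median of all tested genes was 0.45. *Meg3*, the most abundant member, had a WT range of 0.18, below that median. WT replicate 1 also stood apart over all genes. The chi-square per degree of freedom of its counts was 38.3 against WT replicate 2 and 40.1 against WT replicate 3, where it was 8.22 between WT replicates 2 and 3 and 22.8 to 26.9 between *Mkx*-/- libraries.

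**Figure D3:**
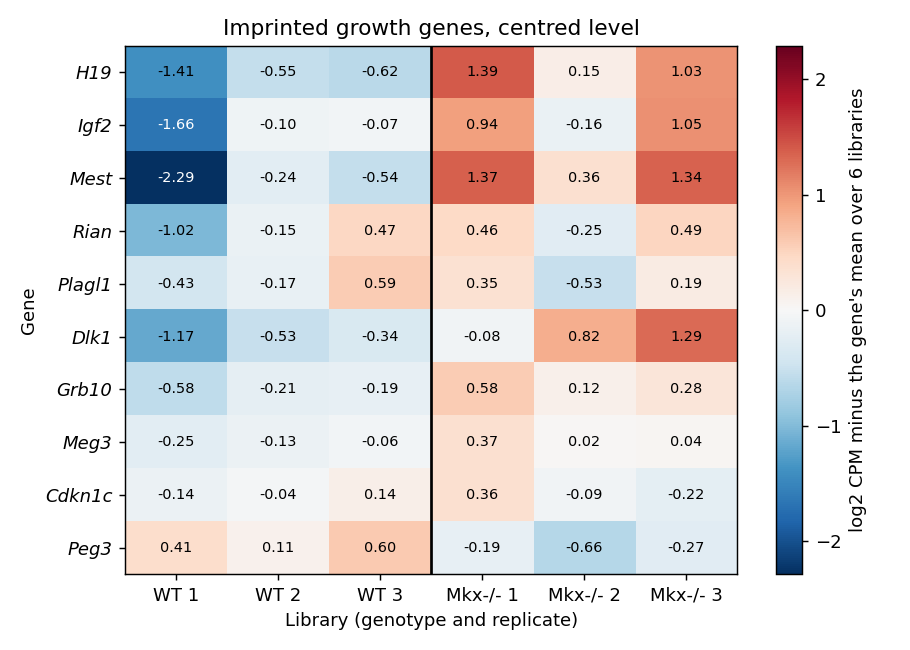
Log2 CPM of each gene (y axis) in each of the 6 libraries (x axis) minus the gene's mean over the libraries, with red above and blue below the mean. The column of WT replicate 1 is blue for all genes but Peg3, reaching -2.29 for Mest, and that of Mkx-/- replicate 2 is lower than those of the other Mkx-/- libraries for 8 of the 10 genes.

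Among genes outside the set with a mean of at least 5 CPM, the 3 whose pattern lay closest to that of *Grb10* over the 6 libraries were *Bag2*, *Rnd3* and *Pdgfrl*, with root mean square differences of 0.064, 0.068 and 0.083 in centred log2 CPM. For *Meg3* they were *Gm12338*, *Gm16464* and *Ankrd13c*, with 0.036, 0.039 and 0.040. This measure takes in the difference between the genotypes and is small for genes that vary little. *Gm12338* and *Gm16464* are annotated as pseudogenes, whose reads could come from their parent genes.

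Promoter sequence was compared over 300 bases, from 250 before to 50 after each RefSeq start in GRCm38.p6. Of the members, 8 matched, with 15 such windows between them, and *H19* and *Cdkn1c* were not matched. The windows of *Mest* and *Peg3* are shown because parental methylation of CpG sites around these starts is known to silence the maternal copy, and because the *Mkx*-/- libraries lay above WT in the first gene and below it in the second, without overlap. Capitals mark CpG dinucleotides. The *Mest* window is chr6:30737800-30738099 on the plus strand and the *Peg3* window is chr7:6730370-6730669 on the minus strand.
Mest: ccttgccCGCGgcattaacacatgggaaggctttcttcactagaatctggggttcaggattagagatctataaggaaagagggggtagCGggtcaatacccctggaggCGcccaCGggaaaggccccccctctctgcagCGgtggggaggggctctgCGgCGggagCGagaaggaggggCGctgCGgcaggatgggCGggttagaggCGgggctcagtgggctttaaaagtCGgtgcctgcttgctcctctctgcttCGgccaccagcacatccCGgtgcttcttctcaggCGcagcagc
Peg3: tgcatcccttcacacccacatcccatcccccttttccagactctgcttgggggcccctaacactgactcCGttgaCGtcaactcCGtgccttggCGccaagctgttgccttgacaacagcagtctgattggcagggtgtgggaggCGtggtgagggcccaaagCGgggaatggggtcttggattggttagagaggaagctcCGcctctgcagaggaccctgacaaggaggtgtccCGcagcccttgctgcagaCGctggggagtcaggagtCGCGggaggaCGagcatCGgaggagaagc
The *Mest* window held 17 CpG dinucleotides and the *Peg3* window 13, where the median of all 32851 promoter windows was 7. Of all windows, 68.6% held fewer than the *Mest* window and 62.1% fewer than the *Peg3* window. *Mest* has several starts, and the window shown was picked for having the most CpG dinucleotides. Its window from 30733256 held 8, and that from 30737803, which nearly coincides with the window shown, held 17. The windows of the other members ranged from 0 for *Rian* to 45 for the first start of *Grb10*. The GC box GGGCGG, searched on both strands, was in 7 of the 15 member windows and in 35.7% of all windows. The 7 included every *Mest* window, some of which overlap, and not that of *Peg3*. TATAAA, searched the same way, was in 1 member window, that of *Meg3*, and in 13.6% of all windows. DNA methylation was not measured here.

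Other imprinted genes moved in both directions, as did all tested genes, with 7208 higher and 7342 lower. Of 14 paternally expressed genes that could be tested, 1 was upregulated and 1 downregulated, where 1.89% and 1.33% of all tested genes were. Their median log2 fold change was 0.14. *Snrpn* and *Snurf*, among these 14, had identical counts and are a single measurement. *Slc38a4*, an amino acid transporter, fell from 20.7, 9.62 and 10.1 CPM in WT to 4.76, 3.44 and 3.88 CPM in *Mkx*-/- libraries (log2 fold change -1.75, SE 0.32, edgeR adjusted p = 0.0221, and 0.0806 without *Mkx*-/- replicate 2). *Zdbf2*, a zinc finger gene, had 3 to 6 counts in the WT libraries and 22 to 27 counts in the *Mkx*-/- libraries (log2 fold change 2.30, SE 0.42, edgeR adjusted p = 0.0206, and 0.0917 without the male WT replicate 3). The first was lower and the second higher in every *Mkx*-/- library. *Ndn*, *Sgce* and *Peg10* did not pass the threshold, with log2 fold changes of 0.44, 0.30 and -0.29.

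Of 9 maternally expressed genes that could be tested, 1 was upregulated and 0 downregulated, where 1.89% and 1.33% of all tested genes were. By the adjusted p alone 1 more was lower, against 2.26% of all tested genes. The median log2 fold change of the 9 genes was 0.076. *Slc22a18*, a transporter gene near *Cdkn1c*, had 4 to 6 counts in the WT libraries and 14 to 19 counts in the *Mkx*-/- libraries (log2 fold change 1.75, SE 0.37, edgeR adjusted p = 0.0347, and 0.133 without WT replicate 3). *Ppp1r9a*, which encodes an actin-binding protein, averaged 21.6 ± 1.35 CPM in WT and 12.8 ± 2.01 CPM in the *Mkx*-/- group (SD, n = 3 each) (log2 fold change -0.76, edgeR adjusted p = 0.0267, and 0.133 under library size scaling). Both of these were without overlap between the genotypes. The counts of *Zdbf2* and *Slc22a18* are low, so that their fold changes carry a large counting error. *Zdbf2* passed the adjusted p in 8 of 13 alternatives and *Slc22a18* in 5 of 13.

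The partners of Igf2, namely receptors, binding proteins, substrates and mRNA-binding proteins, were each tested singly and then counted. Of 13 tested genes, 0 passed the adjusted threshold in edgeR, 4 were higher and 9 lower, and the median log2 fold change was -0.34. The smallest p-values were those of *Igfbp3*, a secreted IGF carrier, *Igf2r*, the imprinted receptor that clears Igf2, and *Irs1*, a substrate of the insulin and IGF1 receptors. *Igf2r* averaged 99.4 ± 11.0 CPM in WT and 72.3 ± 6.38 CPM in the *Mkx*-/- group (SD, n = 3 each) (log2 fold change -0.46, edgeR adjusted p = 0.0823). For *Igfbp3* the log2 fold change was -1.25 and for *Irs1* -0.54, with edgeR adjusted p-values of 0.0734 and 0.0834. *Irs1* and *Igf2r* were lower in every *Mkx*-/- library, and *Igfbp3* overlapped, with WT replicate 1 at 73.8 CPM against 151 and 183 CPM in the other WT libraries.

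Of the genes of the fetal and juvenile growth programme that are not imprinted, 6 could be tested. By the adjusted p 1 of them was higher and 0 were lower, against 3.18% and 2.26% of all tested genes. *Gpc3*, a cell surface proteoglycan whose loss causes overgrowth, was 101, 120 and 119 CPM in the WT libraries and 193, 177 and 214 CPM in the *Mkx*-/- libraries, without overlap. Its log2 fold change was 0.78 (SE 0.13, edgeR adjusted p = 0.0164, and 0.0632 without WT replicate 3). *Igf2bp3*, an mRNA-binding protein gene of fetal tissue, stood at 0.65 on the same scale (edgeR adjusted p = 0.151). *E2f3*, *Ezh2*, *Hmga2* and *Igf2bp2* had log2 fold changes from -0.25 to -0.0084.

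**Figure D4:**
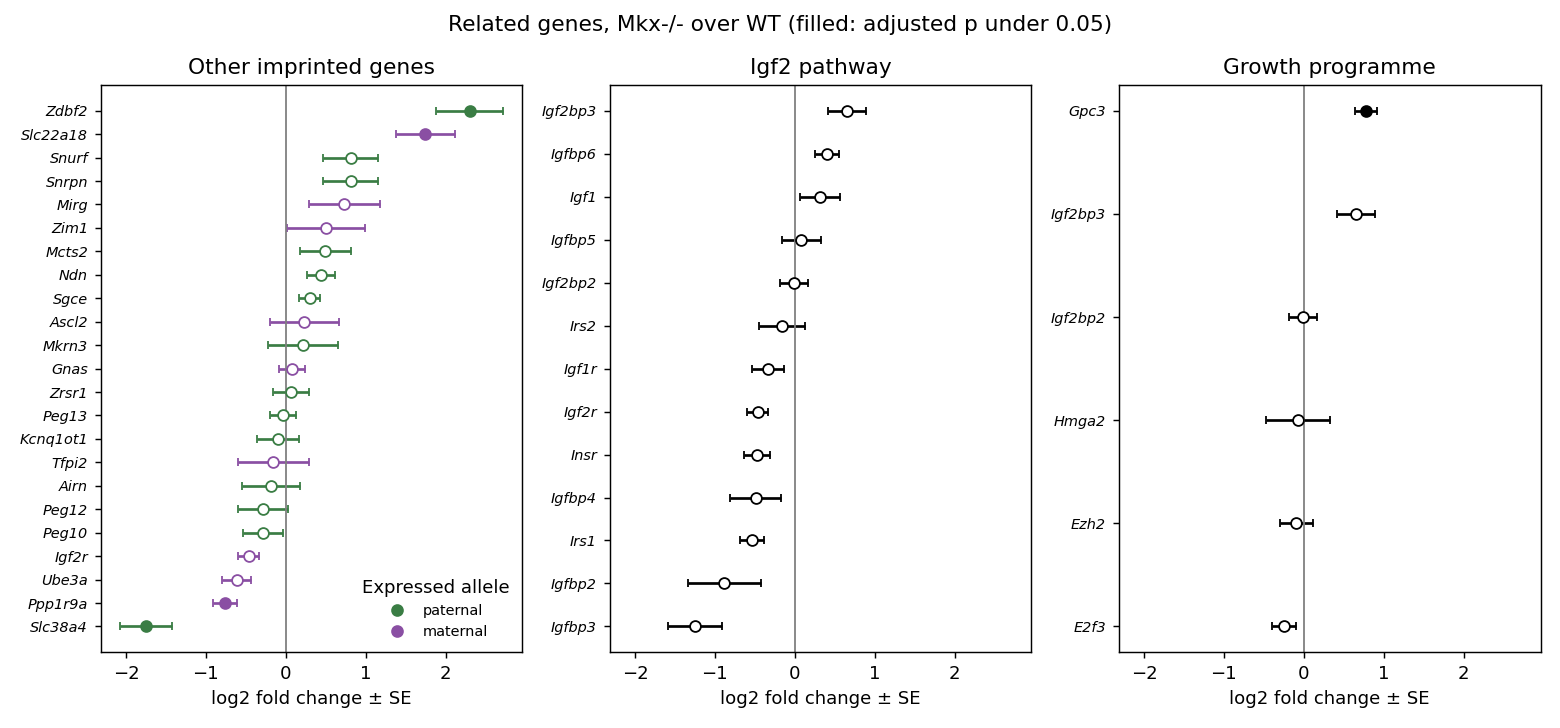
Log2 fold change of Mkx-/- over WT (x axis) with its standard error for the tested genes of the other imprinted genes, the Igf2 pathway and the growth programme (y axis), with filled points for an adjusted p under 0.05. Filled are Zdbf2, Slc22a18, Ppp1r9a and Slc38a4 on the left, none in the middle and Gpc3 on the right.

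Markers of other cell types differed in summed level between the genotypes, although few of them passed the test outside muscle and cartilage. In a bulk sample, fewer cells of a type and less RNA per cell cannot be told apart. Of 25 skeletal muscle markers, 24 were higher in *Mkx*-/- tendons and 7 were upregulated. Each of these 7 calls was lost without WT replicate 3, with edgeR adjusted p-values of 0.109 to 0.139. They were lost under other alternatives too, since each passed the adjusted p in only 5 to 9 of 13 or 14 alternatives. The 25 markers' summed level was 112 to 504 CPM in WT libraries and 707 to 3539 CPM in *Mkx*-/- libraries. In WT the muscle sum was highest in replicate 1, the library lowest in *H19*, *Igf2* and *Mest*. In *Mkx*-/- tendons it was 3539, 1720 and 707 CPM in replicates 1 to 3. *H19* and *Mest* were also highest in replicate 1 of these, but lowest in replicate 2. The 7 satellite cell and myogenic markers summed to 0.158 to 0.393 CPM in WT and 0.951 to 2.20 CPM in *Mkx*-/- libraries, and *Pax7*, *Myf5* and *Myog* were at 0 in all WT libraries.

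The 12 endothelial markers, of which 10 were higher and 1 upregulated, summed to 78.9 to 97.8 CPM in WT and 132 to 205 CPM in *Mkx*-/- libraries. The gene called was *Erg*, at 6.78, 8.44 and 9.69 CPM in WT and 44.1, 37.1 and 26.9 CPM in *Mkx*-/- libraries. *Erg* thus fell from *Mkx*-/- replicate 1 to 3, while the endothelial sum rose, at 132, 142 and 205 CPM. Without *Erg* the endothelial sums would overlap between the genotypes. All 7 Schwann cell markers were higher without 1 being called, with sums of 8115 to 10730 CPM and 12597 to 23372 CPM. Within the *Mkx*-/- libraries both of these sums were lowest in replicate 1 and highest in replicate 3, as was *Dlk1*. The 8 adipocyte markers, of which 2 could be tested and 1 was upregulated, summed to 6.67 to 14.5 CPM and 24.8 to 63.4 CPM, but *Car3* alone made up most of it, at 10.6, 2.75 and 4.25 CPM in WT and 22.1, 57.9 and 29.3 CPM in *Mkx*-/- libraries, and was the gene called (edgeR adjusted p = 0.0258, and 0.106 without WT replicate 3). *Fabp4* overlapped between the genotypes, *Adipoq* had 0 to 9 counts a library, and *Lep* had 10, 5 and 11 counts in WT and 0 in each *Mkx*-/- library. The 9 cartilage markers, with 3 of 7 tested upregulated (*Acan*, *Matn3* and *Ucma*), summed to 1303 to 1797 CPM and 1947 to 2619 CPM. Most of that sum was *Col2a1*, which overlapped (log2 fold change -0.084), and *Comp*. *Comp* was at 694 to 762 CPM in WT and 997 to 1808 CPM in *Mkx*-/- libraries (edgeR adjusted p = 0.0598). Without *Comp* the cartilage sums would overlap between the genotypes. The 6 keratinocyte markers summed to 1.02 to 10.7 CPM and 13.4 to 20.6 CPM, with 0 upregulated. The 11 macrophage and leukocyte markers, all lower and 1 downregulated, summed to 471 to 518 CPM and 307 to 369 CPM. The part of these cell types in the levels of the imprinted genes was not tested.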

How the data were processed

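Tail tendon RNA from 3 WT and 3 *Mkx*-/- libraries was prepared with the Ion Total RNA-Seq kit and sequenced on the Ion Proton. The authors removed adaptors and low-quality reads, aligned the rest to mm9 with MapSplice, and deposited raw counts per gene symbol. The counting program, its annotation and its use of strand are not given in the sources used here, so genes that overlap or have close copies are uncertain. Each of the 6 columns matched a sample title.

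From the deposited counts, edgeR 4.0.16 in R 4.3.3 (filterByExpr, TMM, quasi-likelihood test on genotype alone, fit prior count of 0.125) gave levels and log2 fold changes over all genes. Log2 CPM used a prior count of 0.5. The total count of 10835070 to 14160301 per library and a biological coefficient of variation of 0.196 set the precision. The smallest p that an exact permutation test could give for a gene, with 3 libraries against 3, is 0.1. DESeq2 1.42.0 was an alternative, and DESeq2 is also the tool that the paper used for these genotypes. RLE, upper-quartile and library size scaling were others. So were a low-count filter of at least 1 count somewhere and a stricter minimum of 10 counts throughout. The last were a robust fit, a replicate block, and leaving out each library. Replicate libraries differed by a chi-square per degree of freedom of 8.22 to 40.1, so none was a repeat.

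Coordinates and exon lengths are those of GENCODE for mm9, and sequences those of RefSeq for GRCm38.p6. The text names *Mkx*, the members, the genes of each list past the adjusted threshold or its 3 smallest p-values, and the genes of closest pattern. Members and lists were chosen with earlier results of these data known. *Copg2*, *Mirg* and the other genes named for comparison, marker genes included, were named after their values were seen.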

Additional observations from a re-analysis of the deposited data

How the results depend on the processing

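With DESeq2, 3 members were upregulated and 5 passed the adjusted p, *H19* (DESeq2 adjusted p = 2.95e-06) and *Peg3* (0.00669) among them. Over all genes DESeq2 called 386 upregulated and 274 downregulated. With library size scaling the counts of members were 4 and 6, and with the filter of 1 count 4 and 6. Without a library they ranged from 0 to 2 and from 0 to 2, and 0 were downregulated under any alternative. Library size scaling raised the median log2 fold change of all genes by 0.25, with 711 genes upregulated and 154 downregulated. The filter of 1 count gave 541 and 322, leaving out WT replicate 2 gave 119 and 113, WT replicate 3 gave 103 and 112, *Mkx*-/- replicate 2 gave 155 and 130, and *Mkx*-/- replicate 3 gave 177 and 121. Library size scaling gave log2 fold changes of 1.43 for *Igf2*, 0.55 for *Meg3*, 1.73 for *Dlk1*, 2.17 for *Mest* and 0.91 for *Grb10*, which then passed the threshold, -0.50 for *Peg3*, which then did not, and 0.24 for *Plagl1*, with the sign turned. With the filter of 1 count, *Igf2* (1.16), *Dlk1* (1.45), *Mest* (1.90) and *Grb10* (0.67) passed, and in DESeq2 *Dlk1* (1.43), *Mest* (1.88) and *Grb10* (0.65). The cause of these changes was not tested.

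Over the fits without a library, the log2 fold change ran from 1.45 to 2.04 for *H19*, 0.78 to 1.44 for *Igf2*, 0.16 to 0.36 for *Meg3*, 1.10 to 1.70 for *Dlk1*, -0.89 to -0.62 for *Peg3*, 1.48 to 2.24 for *Mest*, -0.22 to 0.33 for *Plagl1*, -0.16 to 0.16 for *Cdkn1c*, 0.50 to 0.76 for *Grb10* and 0.072 to 0.77 for *Rian*. Over all refits of single members, 107 kept their direction and their side of the threshold, 15 newly passed it, 12 no longer did, and 6 turned sign, all of them in *Plagl1* and *Cdkn1c*, which passed it in none.

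The labels do not say whether the replicate numbers pair the libraries. Deviations of same-numbered libraries from their group means correlated at 0.051, -0.19 and 0.29, and those of differently numbered libraries at -0.38 to 0.35. With 3 libraries a group, such correlations cannot decide whether the libraries were paired. With a replicate block, *H19* (1.71) no longer passed, *Dlk1* (1.38) passed and *Plagl1* was at 0.00062, and 195 genes were upregulated and 136 downregulated in place of 275 and 193. About 34 to 189 counts limit *Dlk1*, and the microRNA genes held too few counts to test.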
